A study of Mus musculus with 9 samples.

Results

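Genes for the entry of lactate-derived and glucose-derived pyruvate into mitochondrial metabolism were examined in mouse embryos at E2.75, around the morula stage. They were 10 genes chosen by name (Ldhb, Mpc1, Mpc2, Pdha1, Pdhb, Pdk1, Pdk2, Pdk3, Pdk4 and Pcx), and all 10 were found among the 20087 named genes of the table. Zygotes of the B6D2F1 background had been injected with small interfering RNA (siRNA, short double-stranded RNA that lowers the messenger RNA it matches). The Hdac1/2 cKD group received siRNA against both histone deacetylase genes Hdac1 and Hdac2, and the Sin3a KD group received siRNA against Sin3a, which encodes the core protein of a corepressor complex containing these deacetylases. The NC group received a nonspecific control siRNA and is labelled wild type. Each group had 3 libraries of polyadenylated RNA, each from a pool of 60 embryos, so differences between embryos or between inner and outer cells of an embryo were averaged. All samples also received foreign RFP and GFP messenger RNA at extraction. The deposited values, read counts after the authors' scaling with DESeq2, are given as normalised counts. The labels do not say that libraries of a group came from separate collections, so p-values measure the spread between these libraries, which may be technical.

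Before the morula stage the mouse embryo depends on pyruvate and lactate from the medium or oviduct, and its use of glucose grows later. Lactate dehydrogenase interconverts lactate and pyruvate in the cytosol, and the subunit encoded by Ldhb is known as the form of the oocyte and the heart. Pyruvate crosses the inner mitochondrial membrane through a carrier built from the products of Mpc1 and Mpc2, each of which needs the other. Inside, the E1 enzyme of the pyruvate dehydrogenase complex, with an alpha subunit from Pdha1 and a beta subunit from Pdhb, turns pyruvate into the acetyl group of acetyl-CoA. The kinases encoded by Pdk1 to Pdk4 switch E1 off by phosphorylating its alpha subunit, and phosphatases switch it on again. Pyruvate carboxylase, encoded by Pcx, instead makes oxaloacetate, which refills the citric acid cycle.

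The promoters of the carrier and E1 genes are shown because these genes had the highest levels of the group, and every Hdac1/2 cKD library lay below every NC library in each of them. Each is the 250 bases upstream of the first RefSeq start listed for the gene, in build GRCm38.p6, on the strand of the gene. By the GENCODE coordinates given below, the Mpc1 and Mpc2 windows lie inside the gene, and the Pdhb window overlaps its gene in part. Capitals mark matches on either strand to any of 6 motifs, namely the CCAAT box with the letters CCAAT, the ETS core CGGAAG, the hypoxia element core ACGTG, the E-box CACGTG, which contains ACGTG, the estrogen-related receptor half-site AAGGTCA, and the palindromic NRF1 motif. The CCAAT box was added to the search after these promoters had been read.
Pdhb (chr14:8172993-8173242, reverse strand): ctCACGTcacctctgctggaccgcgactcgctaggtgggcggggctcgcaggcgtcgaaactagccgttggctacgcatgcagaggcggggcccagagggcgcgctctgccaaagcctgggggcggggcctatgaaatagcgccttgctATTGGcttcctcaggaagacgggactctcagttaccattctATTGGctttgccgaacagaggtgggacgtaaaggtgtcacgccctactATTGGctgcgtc
Pdha1 (chrX:160138431-160138680, reverse strand): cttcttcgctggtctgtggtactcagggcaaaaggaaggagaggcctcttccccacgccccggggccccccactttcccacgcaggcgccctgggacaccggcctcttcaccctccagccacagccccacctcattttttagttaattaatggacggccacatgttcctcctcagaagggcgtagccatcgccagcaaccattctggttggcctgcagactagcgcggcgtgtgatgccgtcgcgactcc
Mpc2 (chr1:165461010-165461259, forward strand): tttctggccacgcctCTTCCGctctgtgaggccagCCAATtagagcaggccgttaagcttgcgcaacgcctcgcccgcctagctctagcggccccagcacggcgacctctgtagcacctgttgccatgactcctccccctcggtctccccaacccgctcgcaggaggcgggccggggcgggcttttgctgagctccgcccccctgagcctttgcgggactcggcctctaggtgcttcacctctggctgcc
Mpc1 (chr17:8283537-8283786, forward strand): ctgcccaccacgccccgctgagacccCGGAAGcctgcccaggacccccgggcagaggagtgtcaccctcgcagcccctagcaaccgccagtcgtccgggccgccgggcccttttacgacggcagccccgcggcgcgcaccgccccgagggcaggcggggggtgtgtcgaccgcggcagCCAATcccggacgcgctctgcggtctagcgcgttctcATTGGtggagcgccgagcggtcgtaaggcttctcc
The Pdhb promoter held 3 CCAAT boxes, all on the opposite strand, and 2.79% of 32851 mouse promoters of the same length held at least as many. The Mpc1 promoter held 2 CCAAT boxes and the Mpc2 promoter 1, while Pdha1 held 0 in this window. At least 1 CCAAT box was present in 33.8% of promoters. The ETS core stood in the Mpc1 and Mpc2 promoters, against 13.6% of all promoters, and the hypoxia element core stood in that of Pdhb, against 16.6% of all promoters. No match to the other 3 motifs was found in these 4 windows, where the background shares were 6.02% for the E-box, 4.08% for the receptor half-site and 0.782% for NRF1. The matches describe letters in these windows and say nothing about whether a factor binds there. The first listed promoters of Pdk2 and Pcx held 3 CCAAT boxes each, and the E-box was found in both. The other listed promoter of Mpc1, of Pdk2 and of Pcx held 0 CCAAT boxes. The first listed promoter of Pdk1 held no match to any of the 6 motifs.

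Estimated reads assigned to named genes ran from 8.38 M in NC replicate 3 to 17 M in NC replicate 1. The estimate took the commonest low value of each library as 1 read. NC replicate 3 also had the highest share of genes listed at 0, at 28.42%, and lay far from all other libraries on principal component 1, at -96.6 where the nearest library was at -20.7. In the Hdac1/2 cKD libraries Hdac1 was at 16.9% and Hdac2 at 13.3% of the NC mean, and in the Sin3a KD libraries Sin3a was at 29.0% of it. Hdac1 was at 34.3% of the NC mean in Sin3a KD as well. Of 11 embryo markers 10 were tested, and Zscan4c, known from an earlier stage than the morula, was listed at 0 in every NC library. Their summed level was 31143 to 35106 in Hdac1/2 cKD, 40818 to 44809.6 in Sin3a KD and 43843 to 48395 in NC. In Hdac1/2 cKD 6 of the 10 fell, namely Cdx2, Tfap2c, Dppa5a, Tead4, Pou5f1 and Cdh1, where 7.8% of all tested genes fell. The calls of Pou5f1 and Cdh1 were kept in 15 and 13 of 20 alternative ways of fitting, and the others in all 20. The keratin genes Krt8 (log2 -0.11) and Krt18 (log2 0.14) did not pass. In Sin3a KD 3 of the 10 fell, namely Krt8, Krt18 and Nanog, where 4.36% of all tested genes fell. Their calls were kept in 19, 14 and 14 of the 20 alternatives. The 9 cumulus and granulosa markers used here summed to 61.1 to 87.1 in Hdac1/2 cKD, 44.3 to 58.3 in Sin3a KD and 15.1 to 31.2 in NC. Of these 9, Cyp19a1 was listed at 0 in every NC library and Ptgs2 in every Sin3a KD library. Only 2 were high enough to be tested, Foxl2 and Cyp11a1, and neither passed in any comparison. Foxl2 had a mean of 22.9 in Hdac1/2 cKD, 26.2 in Sin3a KD and 6.38 in NC. Cyp11a1 had a mean of 18.8 in Hdac1/2 cKD, 10.5 in Sin3a KD and 6.56 in NC. The part of cumulus or granulosa cells, or of the lower embryo markers, in the results was not tested. The 10 oocyte and polar body markers summed to 327 to 345 in Hdac1/2 cKD, 315 to 346 in Sin3a KD and 226 to 376 in NC.

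Levels within the pathway spanned a wide range, set out here as normalised counts per kb of exon (mean ± SD, n = 3 libraries). In NC embryos Pdha1 stood highest at 2743 ± 188 per kb, with Pdhb at 2440.3 ± 133 per kb, and the libraries of these E1 genes overlapped. In Hdac1/2 cKD embryos they were apart, at 2216 ± 125 per kb for Pdha1 and 1615 ± 77.7 per kb for Pdhb. The carrier genes followed in NC, with Mpc2 at 1403 ± 230.4 per kb above Mpc1 at 1039.5 ± 50.6 per kb in each of the 9 libraries. Ldhb was far lower in NC, at 66.9 ± 21.9 per kb. The kinase genes were lower still, where Pdk1 at 18.7 ± 10.6 per kb and Pdk3 at 13.7 ± 3.65 per kb overlapped, and Pdk2 stood at 6.12 ± 1.64 per kb, below both. Pdk4 was between 0 and 1.14 per kb and Pcx between 0 and 1.77 per kb in NC. The exon length is the union over basic GENCODE transcripts, which overstates the length of genes with several isoforms.

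**Figure D1:**
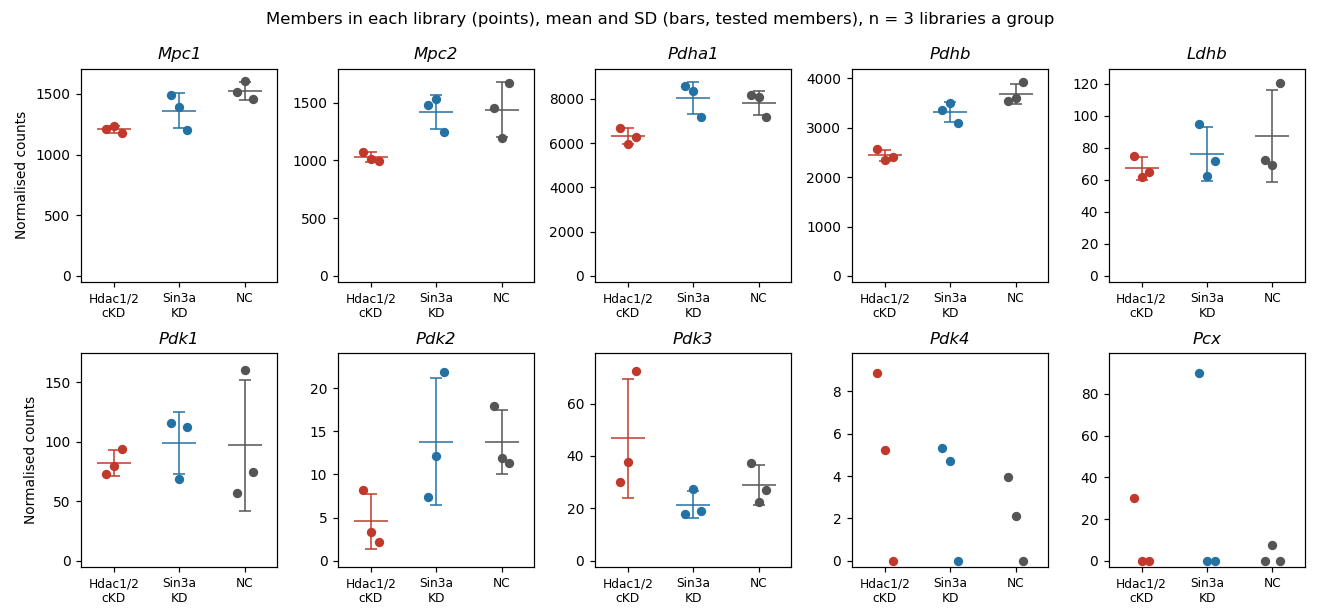
Normalised counts (vertical axes, each from 0) of the 10 genes in the 3 libraries of each group, as points. Bars give the mean and SD of the 8 genes that were tested. Mpc1, Mpc2, Pdha1 and Pdhb lie lower in all Hdac1/2 cKD libraries than in any NC library, while Pdk4 and Pcx lie at or near 0 in most libraries.

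Hdac1/2 cKD against NC asks what changes in these genes when both deacetylases are lowered. Both E1 genes and the carrier gene Mpc2 fell, to between 66.2% and 80.8% of their NC means. The other carrier gene, Mpc1, was at 79.0% of its NC mean and did not pass the test. No gene of the group rose, and Ldhb and the kinase genes did not pass. Of the 10 genes, 8 reached a normalised count of 10 in at least 3 libraries and were tested, and 3 of these fell. Over all tested genes 15.6% changed, with 7.8% that fell and 7.81% that rose (limma, Benjamini-Hochberg adjustment, threshold 0.05). That balance depends on the scaling, since equal library totals gave 1387 genes higher and 676 lower, in place of 1042 and 1041, and left Pdhb as the only member called. Groups did not overlap in Mpc1, Mpc2, Pdha1, Pdhb and Pdk2, all lower in Hdac1/2 cKD, of which Pdk2 passed the filter only through the other groups, and 33.1% of all tested genes did not overlap, 16% lower and 17.1% higher. The median log2 fold change was -0.33 over the 8 genes and 0.03 over all 13343 tested genes. Fold changes are on the scale of log2(value + 1), which understates those of genes with low values.

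Pdhb (chromosome 14, 8165996 to 8173025, reverse strand), the E1 beta gene, had the lowest adjusted p of the group. It had 2575, 2350.3 and 2403 normalised counts in Hdac1/2 cKD, 3361, 3503 and 3093 with Sin3a KD, and 3546, 3609 and 3921 in NC. All Hdac1/2 cKD libraries lay below every library of both other groups. It fell to 2443 ± 118 in Hdac1/2 cKD against 3692 ± 201 in NC (SD, n = 3; log2 -0.60, SE 0.09, adjusted p = 0.0011 with limma). The call was kept in all 20 alternative ways of fitting, where its adjusted p ran from 0.000844 to 0.0185. Within sequencing lanes that hold both groups the log2 difference was -0.55 on lane 2 (2 Hdac1/2 cKD libraries and 1 NC library) and -0.71 on lane 3 (1 library each).

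Pdha1 (chromosome X, 160122209 to 160138413, reverse strand) encodes the E1 alpha subunit, the target of the kinases. Its counts were 6688, 5977 and 6266 in Hdac1/2 cKD, 8571, 8349.9 and 7194 with Sin3a KD, and 8162, 8076 and 7195 in NC embryos. The Hdac1/2 cKD libraries again lay below all others, by a smaller step than for Pdhb. Pdha1 fell to 6310.5 ± 357 in Hdac1/2 cKD against 7811 ± 535 in NC (SD, n = 3; log2 -0.31, SE 0.10, adjusted p = 0.0442 with limma). This call was lost in 13 of 20 alternatives, among them leaving out NC replicate 1 or 2, any Hdac1/2 cKD library, or Sin3a KD replicate 1 or 2, with adjusted p between 0.0259 and 0.16 over all of them, and the log2 fold change stayed between -0.37 and -0.19. Pdha1 shares 1143 bases with Map3k15 on the opposite strand, and no source used here says that strand was used in counting. The within-library log2 ratio of Pdha1 to Pdhb counts was 1.35 to 1.38 in Hdac1/2 cKD, 1.22 to 1.35 in Sin3a KD and 0.88 to 1.20 in NC. Both knockdowns lay above every NC library in this ratio, and they overlapped each other. The lowest Sin3a KD value (1.218) lay close to the highest NC value (1.203). The ratio was not tested, and the share of gene pairs that separate in this way was not computed.

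Mpc2 (chromosome 1, 165460637 to 165481214, forward strand) had normalised counts of 1075, 1014 and 993 in Hdac1/2 cKD, 1479.6, 1529 and 1249 with Sin3a KD, and 1453, 1195 and 1666 in NC embryos. The NC libraries were widely spread, and the lowest of them still lay above every Hdac1/2 cKD library. Mpc2 fell to 1028 ± 42.5 in Hdac1/2 cKD against 1438 ± 236 in NC (SD, n = 3; log2 -0.47, SE 0.14, adjusted p = 0.0314 with limma). The call was lost in 10 of 20 alternatives, among them leaving out NC replicate 1, NC replicate 3 or any Hdac1/2 cKD library, and adjusted p ran from 0.00889 to 0.112. The log2 difference was -0.19 within lane 2 and -0.74 within lane 3, where NC replicate 3 is the NC library. Gm37860 overlaps 1034 bases of the span of Mpc2 on the same strand, and its effect on the count was not tested.

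Mpc1 (chromosome 17, 8282904 to 8297661, forward strand), its partner in the carrier, had 1209, 1236 and 1176 in Hdac1/2 cKD, 1494, 1389.7 and 1205 with Sin3a KD, and 1519.9, 1606 and 1458 in NC embryos. The Hdac1/2 cKD and NC libraries did not overlap. Its mean was 1207 ± 30.4 in Hdac1/2 cKD and 1528 ± 74.4 in NC (SD, n = 3). The difference did not pass (log2 -0.34, 95% confidence interval -0.58 to -0.10, adjusted p = 0.0585 with limma). It passed in 1 of 20 alternatives, in which a mean of 50 was required for testing, and adjusted p ran from 0.0459 to 0.179. A processed pseudogene, Mpc1-ps, and the overlapping opposite-strand transcript 4930506C21Rik may make its count less certain, which was not tested.

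**Figure D2:**
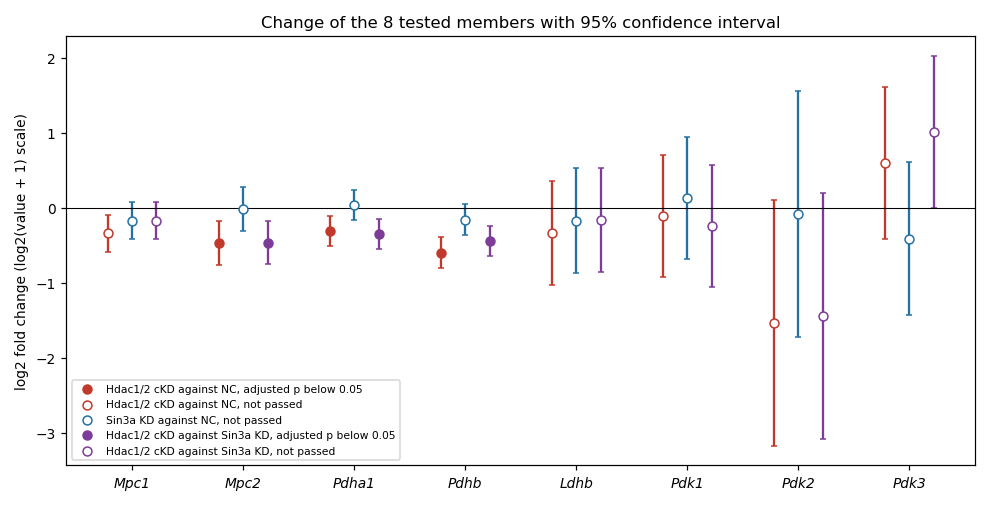
Log2 fold change (points) with its 95% confidence interval (lines) for the 8 tested genes in the 3 comparisons, on the log2(value + 1) scale. Filled points had an adjusted p below 0.05, and these are Mpc2, Pdha1 and Pdhb, below 0 in both comparisons of Hdac1/2 cKD. The intervals of Pdk2 and Pdk3 are the widest.

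Ldhb (chromosome 6, 142490249 to 142507957, reverse strand) had normalised counts of 75.1, 61.5 and 64.9 in Hdac1/2 cKD, 94.9, 62.3 and 71.4 with Sin3a KD, and 72.3, 69.2 and 120.2 in NC embryos. The groups overlapped, and NC replicate 3 was the highest of the 9 libraries. Neither Hdac1/2 cKD (log2 -0.33, 95% confidence interval -1.03 to 0.37, adjusted p = 0.538 with limma) nor Sin3a KD (log2 -0.17, -0.86 to 0.53, adjusted p = 0.802) passed against NC. Without NC replicate 3 the values were -0.078 in Hdac1/2 cKD and 0.084 in Sin3a KD. Its paralogue Ldha, which encodes the muscle-type subunit, rose in both knockdowns (log2 3.24, adjusted p = 2.52e-06 in Hdac1/2 cKD, and log2 0.94, adjusted p = 0.0164 in Sin3a KD). Per kb of exon, Ldha stood at 1506 ± 286 in Hdac1/2 cKD, 305 ± 46.7 in Sin3a KD and 162 ± 50.8 in NC, and Ldhb at 51.5 ± 5.43 in Hdac1/2 cKD, 58.4 ± 12.9 in Sin3a KD and 66.9 ± 21.9 in NC (SD, n = 3). The within-library log2 ratio of Ldha to Ldhb counts was 4.97, 5.46 and 5.71 in Hdac1/2 cKD, 2.62, 2.94 and 3.19 with Sin3a KD, and 1.81, 1.81 and 1.79 in NC embryos. The groups were separate in this ratio, which was not tested, and the NC libraries were nearly equal although NC replicate 3 was the highest NC library for both genes. Ldha has processed pseudogenes named Ldha-ps and Ldha-ps2, so its level is uncertain, and its call in Sin3a KD was lost in 6 of 20 alternatives (adjusted p 0.00611 to 0.213). Lane as a factor and moderation without trend or robust variances were among these alternatives.

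**Figure D3:**
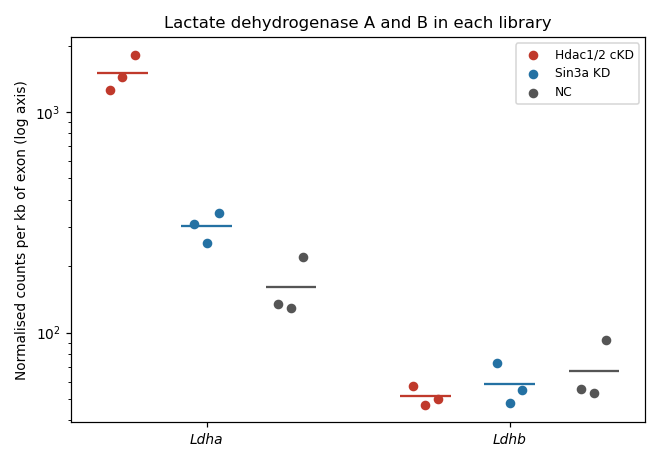
Normalised counts per kb of exon (log axis) of Ldha and Ldhb in each library (points), with group means (lines). Ldha lies highest in the Hdac1/2 cKD libraries, at 1256 to 1817 per kb, while the Ldhb points of the 3 groups overlap between 47.2 and 92.2 per kb.

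The 4 kinase genes were measured at low levels, and none passed a test. Pdk1 (chromosome 2, 71873224 to 71903858, forward strand), a known hypoxia-responsive kinase gene, had 72.7, 79.4 and 93.8 normalised counts in Hdac1/2 cKD, 115.6, 69.0 and 112 with Sin3a KD, and 56.9, 159.9 and 74.2 in NC. NC replicate 2 was the highest of all 9 libraries, and the groups overlapped. The log2 fold change in Hdac1/2 cKD was -0.11 (95% confidence interval -0.92 to 0.71, adjusted p = 0.885 with limma), and 0.32 without that library. Pdk3 (chromosome X, 93764607 to 93832201, reverse strand), another kinase gene, had 30.0, 37.7 and 72.6 in Hdac1/2 cKD, 17.9, 27.3 and 19.1 with Sin3a KD, and 37.5, 22.5 and 26.9 in NC. Hdac1/2 cKD replicate 3 stood well above the rest, and the groups overlapped (log2 0.60, -0.42 to 1.62, adjusted p = 0.433). Without that library the log2 fold change was 0.24.

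Pdk2 (chromosome 11, 95026258 to 95041354, reverse strand), the most widely expressed kinase gene of adult tissues, had 8.15, 3.39 and 2.13 in Hdac1/2 cKD, 7.43, 12.1 and 21.9 with Sin3a KD, and 18.0, 11.9 and 11.3 in NC. All Hdac1/2 cKD libraries lay below 10, so the gene was tested only because of its values in the other groups. The difference did not pass (log2 -1.53, 95% confidence interval -3.17 to 0.11, adjusted p = 0.201 with limma). An antisense gene, Gm11513, overlaps 5525 bases of it. Pdk4 (chromosome 6, 5483351 to 5496309, reverse strand), the kinase gene induced by fasting in adult tissues, had 8.88, 5.21 and 0 in Hdac1/2 cKD, 5.30, 4.72 and 0 with Sin3a KD, and 3.96, 2.11 and 0 in NC. It was listed at 0 in replicate 3 of each group and was not tested.

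Pcx (chromosome 19, 4510472 to 4621752, forward strand) had 29.9, 0 and 0 in Hdac1/2 cKD, 90.2, 0 and 0 with Sin3a KD, and 0, 7.51 and 0 in NC. A single library of each group held a value and the other 6 were listed at 0, so it was not tested. Lrfn4 on the opposite strand overlaps 3883 bases of Pcx. In bulk RNA, fewer cells that express a gene and less of its RNA per cell cannot be told apart, and this applies to every value given here.

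The enzymes and carriers around these genes moved in both directions in Hdac1/2 cKD, where 7.81% of all tested genes rose and 7.8% fell. Of the 3 other subunits of the pyruvate dehydrogenase complex tested (Dlat, Dld and Pdhx), none passed and 0 had an unadjusted p below 0.05, and their log2 fold changes lay below 0, with a median of -0.17. Of 3 genes of the phosphatase that reactivates E1, Pdp2, which encodes a catalytic subunit, fell to 6649 ± 647 in Hdac1/2 cKD against 10171 ± 1817 in NC (SD, n = 3; log2 -0.60, adjusted p = 0.00427 with limma). Pdp1, the other catalytic subunit, did not pass (log2 -0.37, adjusted p = 0.453). Of 7 genes for the making or attachment of lipoic acid, on which the complex depends, 2 fell and 5 did not pass. These were Lias, lipoic acid synthase (log2 -0.48, adjusted p = 0.0274), and Gcsh, the protein on which the lipoyl group is made (log2 -0.40, adjusted p = 0.0196). Both calls were lost in some alternatives, with adjusted p up to 0.0953 for Lias and 0.107 for Gcsh.

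Of 5 genes of monocarboxylate transport at the cell surface, Bsg, the chaperone of these transporters, rose to 3842 ± 317 in Hdac1/2 cKD against 2751 ± 374 in NC (log2 0.49, adjusted p = 0.00965). The lactate and pyruvate transporter gene Slc16a1 did not pass (1239.9 ± 16.9 in Hdac1/2 cKD, 1329 ± 68.2 in NC, adjusted p = 0.621). Of 5 genes that make or exchange cytosolic pyruvate, Pkm, pyruvate kinase of most tissues, rose to 2007 ± 198 in Hdac1/2 cKD against 1305 ± 307 in NC (log2 0.64, adjusted p = 0.0107), and 4 did not pass. None of 17 citric acid cycle genes passed. Closest was Sdha, a succinate dehydrogenase subunit gene (log2 -0.56, adjusted p = 0.0557), with 2 of the 17 at an unadjusted p below 0.05, and the median log2 fold change was 0.09. Of 6 malate-aspartate shuttle genes, which carry reducing power inward, 1 rose and 1 fell, against 7.81% and 7.8% of all tested genes. They encode alternative aspartate-glutamate carriers, as Slc25a13 rose to 348 ± 42.6 in Hdac1/2 cKD against 144.9 ± 45.5 in NC (log2 1.30, adjusted p = 0.00515) and Slc25a12 fell to 441 ± 113 in Hdac1/2 cKD against 748 ± 203 in NC (log2 -0.76, adjusted p = 0.0266). Me2 (adjusted p = 0.864) and Me3 (adjusted p = 0.793), the malic enzyme genes tested, did not pass. The Slc25a12 call was lost in 8 of 20 alternatives (adjusted p up to 0.141), including leaving out NC replicate 1 or Hdac1/2 cKD replicate 2 or 3. That of Pkm was lost in 4 (up to 0.0676), including leaving out Hdac1/2 cKD replicate 3, that of Bsg in 2 (up to 0.0615), and that of Slc25a13 in 0.

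Of 10 tested factors known to regulate kinase genes of this pathway in other tissues, 2 rose and 2 fell in Hdac1/2 cKD. Over all tested genes 7.81% rose and 7.8% fell. Hif1a, the hypoxia-inducible factor known to activate Pdk1, rose to 542 ± 31.0 in Hdac1/2 cKD against 129 ± 45.7 in NC (SD, n = 3; log2 2.13, SE 0.25, adjusted p = 0.00014 with limma), and Nr3c1, the glucocorticoid receptor, rose as well (log2 1.44, adjusted p = 0.0105). Esrrb, a pluripotency factor of the estrogen-related receptor family, fell to 1383 ± 214 in Hdac1/2 cKD against 2556 ± 585 in NC (log2 -0.87, adjusted p = 0.00471), and Foxo1 fell too (log2 -0.54, adjusted p = 0.0171). The Hif1a and Esrrb calls were kept in all 20 alternatives, while Nr3c1 was lost in 4 (adjusted p up to 0.0745, without Hdac1/2 cKD replicate 1 or 3 among them) and Foxo1 in 3 (up to 0.0724, without Hdac1/2 cKD replicate 2 or 3 among them). Pdk1 itself did not pass, as given above, and its interval reaches from -0.92 to 0.71 on the log2 scale.

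**Figure D4:**
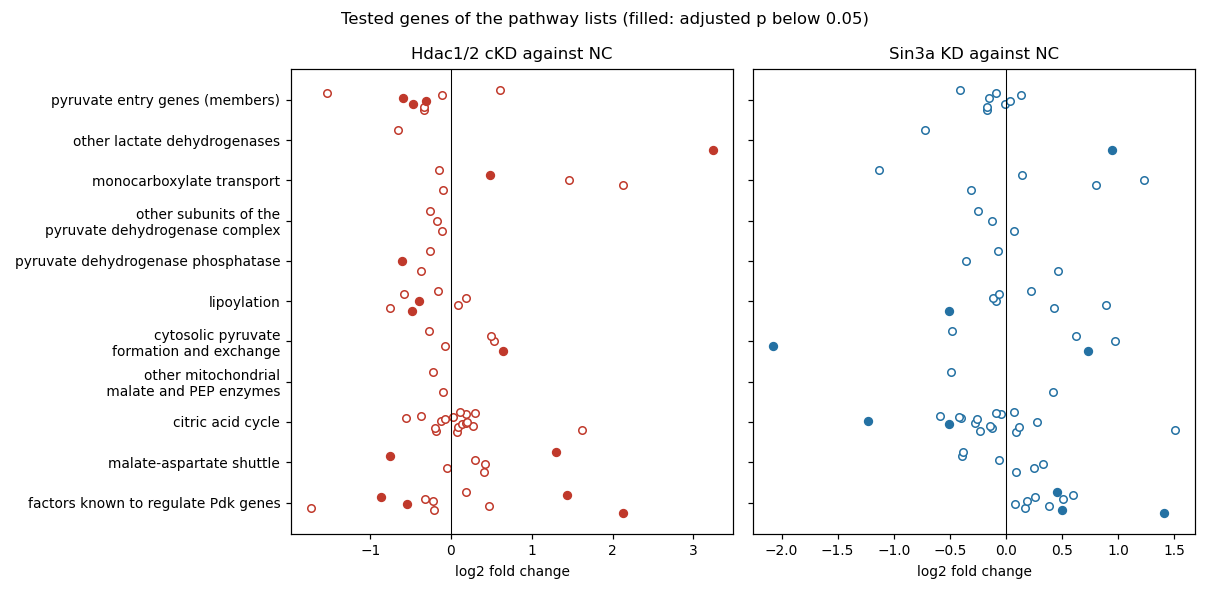
Log2 fold changes of the tested genes of each list in Hdac1/2 cKD against NC (left) and Sin3a KD against NC (right), 1 point a gene. Filled points had an adjusted p below 0.05, and NC is shared by both panels. The filled points of the pyruvate entry genes, 3 in all, lie left of 0 in the left panel, and the right panel has none for these genes.

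The comparison of Sin3a KD with NC addresses the loss of Sin3a, in libraries where Hdac1 was lower too. None of the 8 tested genes passed with limma and 0 had an unadjusted p below 0.05, where 7.96% of all tested genes changed, 3.6% higher and 4.36% lower. With equal library totals that order turned round, to 744 genes higher and 427 lower in place of 480 and 582. Groups did not overlap in 1 of the 8, against 27.1% of all tested genes. Both comparisons share the NC libraries. Mpc2 was at 98.7%, Pdha1 at 102.9%, Pdhb at 89.9% and Mpc1 at 89.2% of the NC mean. For Pdhb all Sin3a KD libraries lay below all NC libraries, as in 13.3% of tested genes, and the log2 fold change was -0.15 (95% confidence interval -0.36 to 0.05, adjusted p = 0.343 with limma), and -0.06 with equal totals. The intervals were -0.30 to 0.28 for Mpc2, -0.17 to 0.25 for Pdha1 and -0.41 to 0.07 for Mpc1. For the kinase genes they were far wider, at -0.68 to 0.95 for Pdk1, -1.73 to 1.56 for Pdk2 and -1.43 to 0.61 for Pdk3, so large changes either way are within them.

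Among the surrounding enzymes, 2 of 17 citric acid cycle genes fell in Sin3a KD, where 4.36% of all tested genes fell and 3.6% rose. Suclg2, the GTP-forming subunit gene of succinyl-CoA synthetase, fell to 498 ± 123 in Sin3a KD against 1157 ± 201 in NC (SD, n = 3; log2 -1.23, SE 0.18, adjusted p = 0.00297 with limma). Ogdh, the E1 gene of the related 2-oxoglutarate dehydrogenase complex, fell to 1389 ± 222 in Sin3a KD against 1968 ± 277 in NC (log2 -0.51, adjusted p = 0.04), a call lost in 13 of 20 alternatives (adjusted p 0.0196 to 0.346). Of the pyruvate kinase genes, Pkm rose (log2 0.73, adjusted p = 0.011) and Pklr, known as the liver and red cell form, fell to 27.5 ± 9.10 in Sin3a KD against 121 ± 50.5 in NC (log2 -2.07, adjusted p = 0.0077). Lias fell (log2 -0.51, adjusted p = 0.0347), which was lost in 11 of 20 alternatives. Of the 10 regulators 3 rose, with Hif1a at 333 ± 69.0 in Sin3a KD against 129 ± 45.7 in NC (log2 1.41, adjusted p = 0.00611), Epas1, a paralogue of Hif1a (log2 0.50, adjusted p = 0.0119), and Rxra (log2 0.45, adjusted p = 0.0243). None of the monocarboxylate transport, malate-aspartate shuttle, phosphatase or other pyruvate dehydrogenase complex genes passed. At an unadjusted p below 0.05 there were 1 of 5, 0 of 6, 1 of 3 and 0 of 3 in these lists, and Pdp2 had the lowest adjusted p at 0.0836. The Suclg2 call was lost in 2 of 20 alternatives, those of Hif1a and Pklr in 3, those of Pkm and Epas1 in 4 and that of Rxra in 7. Each of these calls, and those of Ogdh and Lias, was lost with moderation without trend or robust variances. Each was also lost when NC replicate 1 and Sin3a KD replicate 1, which had lanes to themselves, were dropped together. All but that of Suclg2 were lost with lane as a factor too.

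Hdac1/2 cKD against Sin3a KD tests the difference between the knockdowns directly. Pdhb, Mpc2 and Pdha1 were lower in Hdac1/2 cKD, and 5 of the 8 tested genes did not pass, where 17.3% of all tested genes changed, 8.78% lower and 8.49% higher. Pdhb was at 73.6% of its Sin3a KD mean (log2 -0.44, SE 0.09, adjusted p = 0.00595 with limma). Mpc2 was at 72.4% (log2 -0.46, SE 0.14, adjusted p = 0.0322) and Pdha1 at 78.5% (log2 -0.35, SE 0.10, adjusted p = 0.0232). In all 3 genes every Hdac1/2 cKD library lay below every Sin3a KD library. Over all tested genes 39.7% did not overlap, 19.3% lower and 20.4% higher. Mpc1 did not pass (log2 -0.17, 95% confidence interval -0.41 to 0.07, adjusted p = 0.345). Pdk3 had higher values in all Hdac1/2 cKD libraries than in any Sin3a KD library and did not pass (log2 1.01, -0.00 to 2.03, adjusted p = 0.167), with 0.65 when Hdac1/2 cKD replicate 3 was left out. The Pdhb call was lost in 1 of 20 alternatives, with lane as a factor (0.0891), the Mpc2 call in 8 and the Pdha1 call in 7. Both of these were lost when Hdac1/2 cKD replicate 2 or 3 or Sin3a KD replicate 1 or 2 was left out, and that of Mpc2 also without Hdac1/2 cKD replicate 1. Within lane 3 (1 Hdac1/2 cKD library and 2 Sin3a KD libraries) the log2 differences were -0.45 for Pdhb, -0.48 for Mpc2 and -0.31 for Pdha1.

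Among neighbouring genes, Slc25a13, Suclg2, Ogdh, Ldha and Pklr were higher in Hdac1/2 cKD than in Sin3a KD. Idh2 (log2 0.42, adjusted p = 0.0385 with limma) and Bsg (log2 0.34, adjusted p = 0.0495) were higher too, but the Idh2 call was lost in 8 of 20 alternatives (adjusted p up to 0.17), among them without Hdac1/2 cKD replicate 2 or 3 or Sin3a KD replicate 1 or 3. The Bsg call was lost in 11 (up to 0.169), among them leaving out any library of either group. Lipt1, a lipoyl transferase gene, was lower, at 69.7 ± 19.0 in Hdac1/2 cKD against 157 ± 11.5 in Sin3a KD (SD, n = 3; log2 -1.19, adjusted p = 0.0092 with limma). Of the regulators, Epas1 (log2 -0.70), Foxo1 (log2 -0.62), Esrra (log2 -0.83) and Esrrb (log2 -1.13) were lower and none passed as higher. Hif1a (log2 0.72, adjusted p = 0.0644 with limma) and Nr3c1 (log2 0.84, adjusted p = 0.104) did not pass. Both had higher values in every Hdac1/2 cKD library than in any Sin3a KD library, as in 20.4% of tested genes. Esrra, a receptor known to activate genes of mitochondrial metabolism, had 894 ± 92.8 in Hdac1/2 cKD and 1607 ± 322 in Sin3a KD (adjusted p = 0.00289), and did not pass against NC in Hdac1/2 cKD (adjusted p = 0.189) or in Sin3a KD (adjusted p = 0.067).

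The genes whose log2 values over the 9 libraries ran closest to those of Pdhb were Nudt4, Ndufaf7, an assembly factor gene of the first respiratory complex, and Pdcd6 (Pearson r = 0.993, 0.986 and 0.985). This is a description over libraries that fall into 3 groups. The genes were chosen as the highest of the tested genes, with the members and predicted gene models (Gm and Rik names) left out. The nearest to Mpc1 was Dph1 (r = 0.972), to Mpc2 Usp53 (r = 0.961) and to Pdha1 Ddx31 (r = 0.972).

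**Figure D5:**
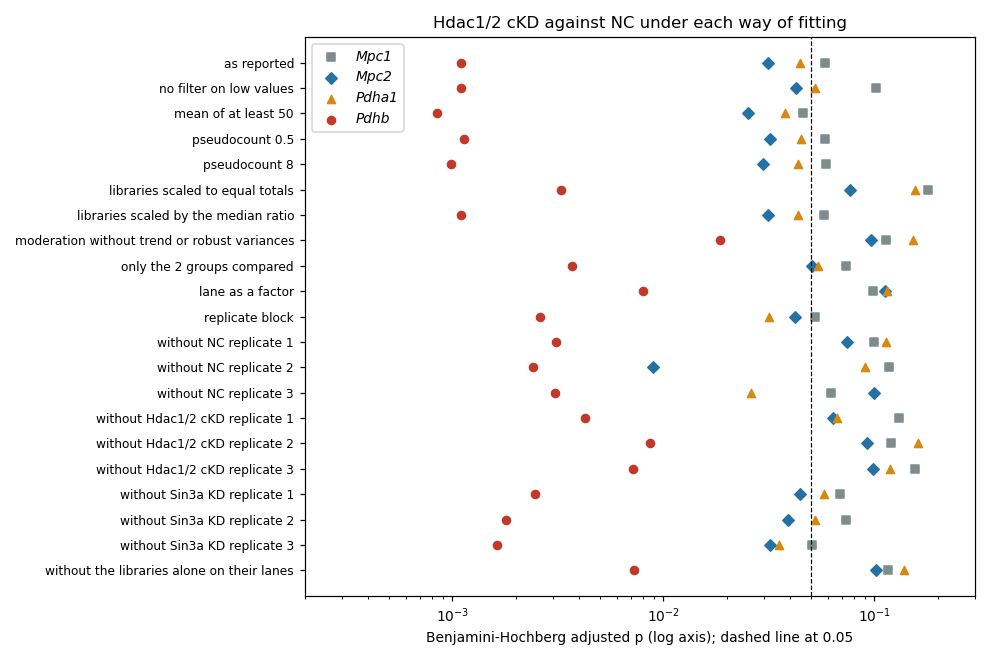
Benjamini-Hochberg adjusted p (log axis) of Mpc1, Mpc2, Pdha1 and Pdhb in Hdac1/2 cKD against NC, as reported and under 20 other ways of fitting (rows). Pdhb lies left of the dashed line at 0.05 in every row, while Mpc2 and Pdha1 lie on either side of it and Mpc1 passes it once.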

How the data were processed

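The study's design text says that reads were assigned to transcripts with Salmon, and the submitters' processing notes also name DESeq2 and build GRCm38, with no versions. The deposited signal is the authors' gene-level count table normalised by DESeq2, and its values are not whole. 1 unnamed line (0.00543% to 0.00896% of a library) was left out. No entry carries the name of the RFP or GFP RNA spiked in at extraction (0 found), so total RNA per embryo could not be compared.

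The 13343 genes reaching 10 in 3 or more of the 9 libraries were fitted in limma 3.58.1 under R 4.3.3 on log2(value + 1), 1 mean per group, with trend and robust moderation and 6 residual degrees of freedom. P-values were 2-sided and adjusted by Benjamini-Hochberg over all tested genes. The fit was also run on simulated data without lane effects. The planted changes were larger than those of the called members, so that run says nothing about their calls. NC serves in 2 comparisons, which are therefore not independent. Members and lists were chosen with earlier results of these data known. All 10 members are named. The rule for other genes took from each list, in each comparison with NC, the called genes lowest in adjusted p, at most 4, or 2 genes if none passed, and not all of these are shown. Dlat, Lipt1, Esrra, Pou5f1, Cdh1, Cyp19a1, Ptgs2, Zscan4c, the values of Slc16a1, Pdp1, Krt8 and Krt18 in Hdac1/2 cKD against NC, and the changes given for Hdac1/2 cKD against Sin3a KD lie outside that rule and were chosen after their values were seen. Lanes were read from the library descriptions. The labels do not tie equal replicate numbers together. Deviations of same-numbered libraries from their group means correlated at -0.0193 to 0.0581, which cannot show whether they shared a collection. Coordinates and exon lengths come from GENCODE vM21 (GRCm38), promoters from RefSeq (GRCm38.p6), which matched all 10 members. Overlaps between genes were measured over whole gene spans, introns included, and overlap of exons was not computed.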

Additional observations from a re-analysis of the deposited data

How the results depend on the processing

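The results were recomputed under 20 alternatives. Over 24 results for single genes, no call changed direction, 39 values moved to an adjusted p above 0.05 and 1 moved below it. The 3 genes called in Hdac1/2 cKD against NC became 1 (Pdhb) with equal totals, moderation without trend or robust variances, only the 2 groups compared, lane as a factor, or without the lone-lane libraries, and 1 to 3 when any 1 library was left out. In Hdac1/2 cKD against Sin3a KD the 3 became 1 with that moderation, 0 with lane as a factor, 1 without the lone-lane libraries, and 1 to 3 when 1 library was left out. In Sin3a KD against NC the count was 0 throughout with limma.

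Over all genes, Hdac1/2 cKD against NC gave 2083 calls, or 1369 with the other moderation and 1318 without the lone-lane libraries. Leaving out 1 library gave 1271 to 2170. Sin3a KD against NC gave 1062, or 36 with the other moderation, 611 with only the 2 groups compared, 94 with a lane factor and 51 without the lone libraries, and 337 to 1538 when 1 library was left out. Hdac1/2 cKD against Sin3a KD gave 2304, or 1002 with a lane factor and 1384 without the lone libraries, and 1426 to 2748 when 1 library was left out. The lone libraries, replicate 1 of both NC and Sin3a KD, add nothing once lane is fitted, so both settings rest on fewer libraries.

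Changes of sign, none of them past the threshold, were these. With equal totals, which moves the median log2 fold change of all genes from 0.03 to 0.15 in Hdac1/2 cKD against NC and to 0.12 in Sin3a KD against NC, they were 0.0050 for Pdk1 in Hdac1/2 cKD, and 0.083 for Mpc2 and 0.0028 for Pdk2 in Sin3a KD, against NC. With lane as a factor they were -0.16 for Pdk1 and 0.76 for Pdk2 in Sin3a KD against NC, and 0.21 for Ldhb in Hdac1/2 cKD against Sin3a KD. Without the lone libraries these were -0.30 for Pdk1, 0.46 for Pdk2 and 0.0050 for Ldhb. When 1 library was left out, values ran from -0.41 to 0.32 for Pdk1 in Hdac1/2 cKD against NC and from -0.29 to 0.0050 for Ldhb in Hdac1/2 cKD against Sin3a KD. In Sin3a KD against NC they ran from -0.34 to 0.084 for Ldhb, -0.14 to 0.10 for Mpc2, -0.019 to 0.12 for Pdha1, -0.18 to 0.56 for Pdk1 and -0.46 to 0.26 for Pdk2. Pdk2 and Pdk3 have no value where a mean of 50 was required. The causes were not tested. With a replicate block the called members numbered 3 in Hdac1/2 cKD against NC, 0 in Sin3a KD against NC and 3 in Hdac1/2 cKD against Sin3a KD, with no member call changed, and calls over all genes were 2140, 1046 and 2372 in these comparisons. The labels do not say whether equal numbers pair the libraries.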
